A study of Caenorhabditis elegans with 22 samples.

Results

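The comparison described here is that of ser-5(vq1) mutants with the wild-type strain N2, both kept with the solvent DMSO and without an added compound. SER-5 is one of several G protein-coupled serotonin receptors of Caenorhabditis elegans. The members are the 3 libraries labelled ser-5(vq1) with DMSO and the 5 labelled N2 with DMSO, out of 22 libraries in 7 groups. All 19598 genes of the count table were considered, and 16431 of them held enough reads to be tested.

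The series was set up around feeding and fat storage under different serotonin receptors, and its other libraries hold serotonin, loxapine and ser-7(vq2). Every group shared one regime. Synchronised larvae grew in liquid medium on X-ray-killed OP50 bacteria with carbenicillin and fungizone. FUDR, an inhibitor of DNA synthesis that leaves adults sterile, was present at 0.12 mM from the L4 stage in both strains. DMSO was kept under 0.3%, dosing began on day 1 of adulthood, and RNA of the whole body was taken after 72 h. The labels give no description of the vq1 lesion, of outcrossing or of the number of animals in a library. Nothing states that the replicates came from separate cultures, and the p-values therefore describe the spread between these libraries, which may be technical.

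In C. elegans, serotonin is made by a small set of neurons from tryptophan. The tryptophan hydroxylase gene tph-1 and the aromatic amino acid decarboxylase gene bas-1 encode its synthesis, the vesicular transporter gene cat-1 its packaging, and the reuptake transporter gene mod-5 its removal. Serotonin stimulates pharyngeal pumping and egg laying and lowers stored fat. It acts through receptors that couple to G proteins, among them SER-1, SER-4, SER-5 and SER-7, and through ion channels such as MOD-1.

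Total counts lay between 29844987 and 38691188 in the N2 libraries and were 36762514, 39765014 and 25652111 in ser-5 replicates 1 to 3. Levels below are CPM, the count over the TMM-scaled library total (edgeR), and log2 fold changes are ser-5 minus N2 from the quasi-likelihood fit over all groups. The numbers in the library names fall into 3 runs, called library series here, and each series holds 1 ser-5 library and 1 or 2 N2 libraries. Series 1 holds N2 replicate 4 and ser-5 replicate 1, series 2 holds N2 replicates 2 and 5 and ser-5 replicate 2, and series 3 holds N2 replicates 3 and 6 and ser-5 replicate 3. The first principal component of the 8 libraries, with 40.3% of the variance, set all 3 libraries of series 3 (21.74 to 44.99) apart from the other 5 (-34.69 to -12.10). N2 replicates 2 and 5, and 3 and 6, resembled each other more than any other pair within a strain. Chi-square divided by its degrees of freedom came to 4.935 and 3.858 for these pairs and to 20.54 to 60.94 for the rest. These pairs differ by more than counting noise, so they were kept as separate libraries, and the SEs and p-values of the comparison may be smaller than they should be.

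The ser-5 transcript was lower in the ser-5 mutant, and it was the only gene past an adjusted p of 0.05. It gave 65, 78, 67, 47 and 60 reads in N2 replicates 2 to 6, and 8, 19 and 5 reads in ser-5 replicates 1 to 3. In CPM these were 1.76, 2.29, 1.77, 1.26 and 2.01 for N2, with a mean of 1.82 ± 0.379 (SD, n = 5). The ser-5 libraries had 0.224, 0.441 and 0.202, with a mean of 0.289 ± 0.132 (SD, n = 3), or 15.9% of N2. Every ser-5 library lay below every N2 library, and none of the 3 was at 0. The log2 fold change was -2.58 ± 0.35 (SE; 95% interval -3.30 to -1.86; edgeR quasi-likelihood test, Benjamini-Hochberg adjusted p = 0.00451). Calls in all genes came to 0.00609%. Within the library series the difference was -2.69, -1.64 and -3.08 on the log2 scale.

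That call rested on few low-count libraries. The adjusted p of edgeR was 0.147 without ser-5 replicate 1 and 0.0883 without ser-5 replicate 3, at log2 fold changes of -2.41 in both cases. It was 0.0913 when the fit held the compared groups alone and 0.0556 when N2 replicates 4 to 6 were the only controls.

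The ser-5 gene lies on chromosome I from 8384931 to 8387039 on the plus strand (WBcel235, Ensembl release 115), with 8 exons and 1626 exonic bases. It sits inside an intron (8380986 to 8388027) of T19A6.1, a protein-coding gene on the minus strand, and shares 0 exonic bases with it. Strand-specific counting is not given in the sources used here, so reads from the T19A6.1 intron and from ser-5 cannot be told apart. T19A6.1 itself stood at 82.6, 74.6, 80.2, 84.8 and 76.7 CPM in N2 and at 85.1, 93.3 and 75.3 CPM in ser-5. Both ranges overlapped, and its log2 fold change was 0.08 ± 0.10 (SE). The other tested neighbours differed by -0.09 ± 0.26 for F16D3.6, 0.29 ± 0.16 for ngp-1 and -0.12 ± 0.09 for nepr-1 on the log2 scale, each with a 95% interval that held 0. Of 206 tested genes within 0.5 Mb of ser-5, 10 had an unadjusted p below 0.05 (4.85%), against 888 of all genes tested (5.4%). Of these 10, 7 were higher and 3 lower, while of the 888 genes 355 were higher and 533 lower. Among the 10 was cyp-36A1, a cytochrome P450 gene, which was higher without overlap of the strains (0.33 ± 0.14).

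**Figure D1:**
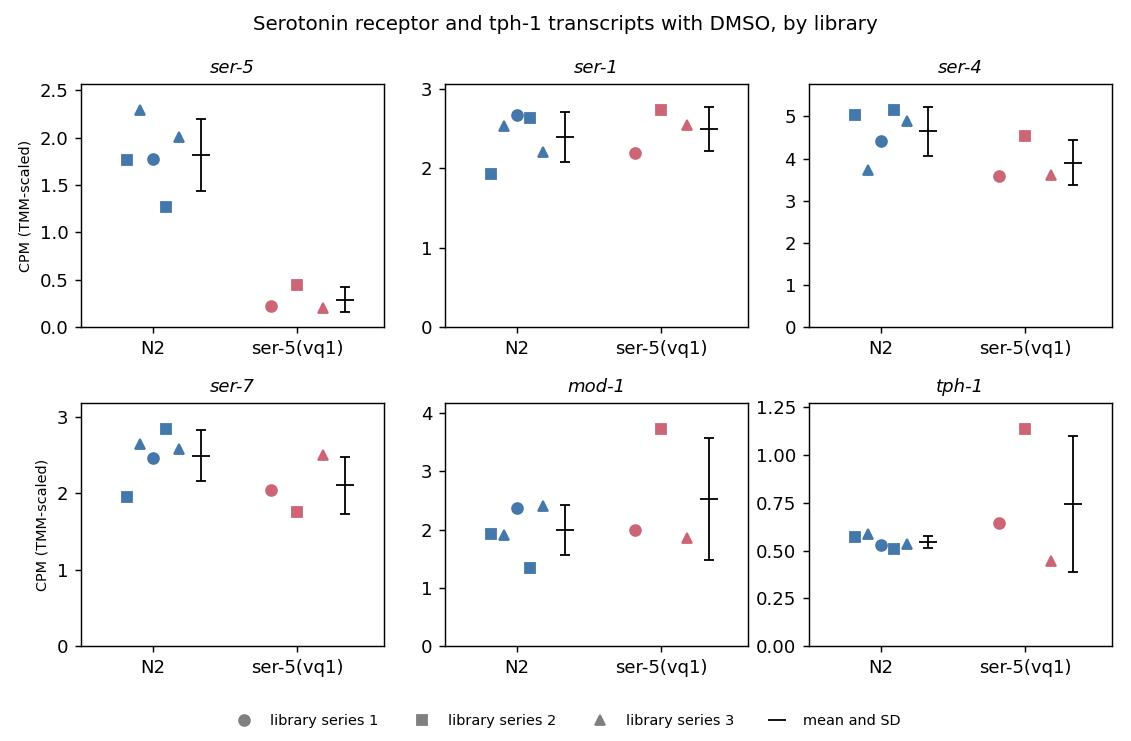
CPM of ser-5, 4 other serotonin receptor genes and tph-1 in each N2 and ser-5(vq1) library with DMSO (linear axes from 0; marker shape gives the library series; bars are mean ± SD over 5 N2 and 3 ser-5 libraries). The 2 strains separate for ser-5, at 1.26 to 2.29 against 0.202 to 0.441 CPM, and their ranges overlap in the other 5 panels.

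The other serotonin receptor genes were measured at similar low levels and none passed the test. The ser-1 transcript stood at 1.92, 2.53, 2.67, 2.63 and 2.21 CPM in N2 and at 2.19, 2.74 and 2.55 CPM in the mutant. Its log2 fold change of 0.06 had a 95% interval from -0.33 to 0.45. The ser-4 transcript stood at 5.04, 3.73, 4.41, 5.16 and 4.88 CPM in N2 and at 3.59, 4.52 and 3.60 CPM in the mutant. The fold change was -0.25 (-0.61 to 0.11) on the log2 scale, and the mutant was the lower in each library series. The ser-7 transcript stood at 1.95, 2.65, 2.46, 2.85 and 2.58 CPM in N2 and at 2.05, 1.76 and 2.51 CPM in the mutant, a log2 fold change of -0.25 (-0.78 to 0.27), and here too the mutant was the lower in each series. For mod-1, the serotonin-gated chloride channel, N2 had 1.92, 1.91, 2.38, 1.34 and 2.41 CPM and the mutant 1.99, 3.73 and 1.86 CPM. A single mutant library, replicate 2, carried the higher mean, and the log2 fold change was 0.36 (-0.15 to 0.86) with it and -0.05 without it. The intervals of ser-1, ser-4, ser-7 and mod-1 thus hold no change as well as moderate ones, and each lies inside 2-fold.

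For the enzyme gene tph-1, N2 gave 0.569, 0.588, 0.529, 0.510 and 0.535 CPM and the mutant 0.645, 1.14 and 0.445 CPM. The mutant values lay on both sides of the N2 range, and the log2 fold change was 0.47 (95% interval -0.15 to 1.098). Mutant replicate 2 carried the higher mean, and the value was 0.02 without it. The log2 fold changes of mod-5, cat-1 and bas-1 were 0.24 (-0.11 to 0.59), 0.06 (-0.35 to 0.47) and -0.15 (-0.55 to 0.26). Of the 10 tested genes in the list of serotonin synthesis and transport, the gene with an unadjusted p below 0.05 was amx-1. It is annotated as an amine oxidase, and whether its product acts on serotonin was not tested. Its levels were 32.1, 31.6, 34.4, 32.6 and 36.0 CPM in N2 and 40.0, 38.9 and 36.6 CPM in the mutant. These did not overlap, yet the log2 fold change of 0.21 ± 0.08 (SE) had an adjusted p of 0.748 by edgeR.

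Among genes downstream of G protein-coupled receptors none passed the test. Of 28 tested genes of G protein and cAMP signalling, 1 was higher (3.57%) and 3 were lower (10.7%) at an unadjusted p below 0.05. Among all genes the shares were 2.16% and 3.24%. The adenylyl cyclase gene acy-1 stood at 13.3, 10.1, 11.9, 14.3 and 9.37 CPM in N2 and at 15.2, 17.0 and 12.3 CPM in the mutant. Its log2 fold change was 0.33 ± 0.15 (SE), with series differences of 0.35, 0.30 and 0.34, although the groups overlapped. The G protein beta subunit gene gpb-1 stood at 400.4, 377, 369, 404 and 383 CPM in N2 and at 301, 362 and 265 CPM in the mutant, without overlap (-0.32 ± 0.13). The other lower genes were the alpha subunit genes egl-30 (-0.36 ± 0.17) and goa-1 (-0.15 ± 0.07), named after their values were seen. None of the 4 had an adjusted p below 0.05. In the list of 14 genes of AMPK and TOR signalling, none had an unadjusted p below 0.05, and aak-2, the catalytic AMPK subunit, had a log2 fold change of -0.08 (95% interval -0.36 to 0.19).

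Across all genes few differences between the strains passed the test. Of 16431 genes tested, 888 (5.4%) had an unadjusted p below 0.05, with 355 higher (2.16%) and 533 lower (3.24%) in the mutant. With the library series as a block, 1421 genes had an unadjusted p below 0.05. The 3 mutant libraries all lay outside the range of the 5 N2 libraries for 928 genes (5.65%), of which 341 were higher (2.08%) and 587 lower (3.57%). The 95% interval lay inside 2-fold for 12787 genes (77.8%). Among the 10569 genes whose mean log2 CPM reached 2 this held for 10097, and among the 5862 lower genes for 2690. The median SE of a log2 fold change was 0.18. The median log2 fold change was -0.000895, with 8174 genes above and 8257 below 0.

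A fitted fold over 2 was found for 350 genes, of which 8 reached a mean log2 CPM of 2, and none of those 8 had groups that did not overlap. The gene with the lowest estimate, clec-209, was chosen after its values were seen and shows why such folds need their counts. This C-type lectin gene stood at 2.28, 2.35 and 2.72 CPM in N2 replicates 2, 3 and 4, and had 0 reads in N2 replicates 5 and 6 and in all 3 mutant libraries. N2 replicates 2 and 5 and replicates 3 and 6, the near-alike pairs, were thus unlike at this gene. In the mutant with loxapine it had 0 reads in 1 library and 2.901 CPM in the other.

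**Figure D2:**
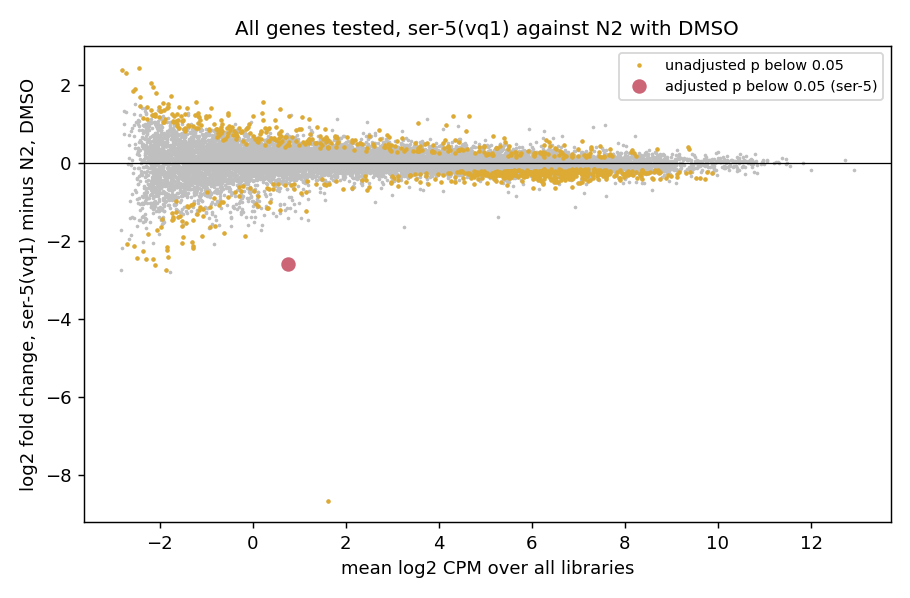
Log2 fold change of ser-5(vq1) minus N2 with DMSO against the mean log2 CPM over all libraries, 1 point per tested gene (16431). The red point is ser-5 at -2.58, yellow points are the genes with an unadjusted p below 0.05, and the isolated point at the bottom is clec-209, with 0 reads in 5 of the 8 libraries.

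The largest differences among well-measured genes without overlap were under 2-fold, and none of the following had an adjusted p below 0.05 in the main test. The immunoglobulin-domain gene zig-1 stood at 22.7, 14.1, 19.8, 20.98 and 13.3 CPM in N2 and at 33.3, 35.6 and 28.2 CPM in the mutant. The mutant was the higher in each series, by 0.75, 0.70 and 1.04, and the log2 fold change was 0.83 ± 0.19 (SE, adjusted p = 0.612, edgeR). With the library series as a block, a fit that called 4 genes (0.0243%), its adjusted p was 0.0181, and by DESeq2 it was 0.0239. Over all 18 other settings the adjusted p of zig-1 ran from 0.0181 to 1.00.

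Of these 20 genes the highest fold was that of hsp-16.2. For this gene, which encodes a small heat shock protein, N2 had 13.8, 7.26, 12.9, 16.9 and 9.80 CPM and the mutant 33.4, 19.3 and 17.4 CPM. Mutant replicate 1 was the highest library and the other mutant libraries lay just above N2, giving a log2 fold change of 0.95 ± 0.49 (SE, 95% interval -0.09 to 1.99). For hsp-70, N2 had 8.05, 4.82, 5.79, 9.43 and 4.85 CPM and the mutant 16.1, 15.0 and 9.10 CPM, which overlapped by 1 library (1.02 ± 0.37). Of 25 tested genes of heat shock and protein folding, hsp-70 alone was higher at an unadjusted p below 0.05 (4.0%, against 2.16% of all genes), and none was lower. The median log2 fold change of the list was 0.05.

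The P-glycoprotein gene pgp-1, an ABC transporter, stood at 19.9, 24.2, 16.8, 24.6 and 20.0 CPM in N2 and at 37.3, 29.6 and 36.5 CPM in the mutant (0.71 ± 0.33). The remaining higher genes of this set were Y41D4B.17 (0.84 ± 0.26), Y110A7A.2 (0.73 ± 0.29), 4R79.2 (0.67 ± 0.25), C25F9.11 (0.65 ± 0.35), H43E16.1 (0.63 ± 0.26), T24A6.7 (0.59 ± 0.22) and F54F7.6 (0.55 ± 0.13). Of these 7, T24A6.7 and F54F7.6 had the smallest fold changes and F54F7.6 the smallest SE.

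On the lower side, F22G12.5 stood at 113, 111, 118, 111 and 113 CPM in N2 and at 76.2, 80.3 and 63.6 CPM in the mutant. Its log2 fold change was -0.62 ± 0.13 (SE, adjusted p = 0.503 by edgeR and 0.0168 by DESeq2). The gene arid-1, named for its ARID domain, stood at 99.8, 99.7, 106.2, 103.6 and 111.2 CPM in N2 and at 84.9, 74.6 and 67.5 CPM in the mutant (-0.46 ± 0.09). Its adjusted p was 0.435 in the main test, 0.0168 by DESeq2 and 0.0267 with the series block. With the near-alike N2 pairs summed, the same block gave 0.226 for arid-1, 0.114 for zig-1 and 0.0464 for col-20. The gene col-20, which encodes a cuticle collagen, depended on how series were handled. N2 gave 197, 465, 170, 168 and 429 CPM, with the high values in series 3, and the mutant 98.2, 98.7 and 284 CPM, again highest in series 3. The groups overlapped as a whole, but the mutant was lower by 0.79, 0.88 and 0.65 within the series, and the adjusted p was 0.974 in the main test and 0.00773 with the series block.

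The other genes on the lower side were sea-2 (-0.67 ± 0.34), C09F9.2 (-0.64 ± 0.27), lin-41 (-0.61 ± 0.14), R03D7.2 (-0.59 ± 0.24), ZK84.1 (-0.58 ± 0.42), F11A5.9 (-0.55 ± 0.15), set-9 (-0.53 ± 0.22), mlt-10 (-0.53 ± 0.21) and Y57A10A.31 (-0.53 ± 0.14). The sea-2 and set-9 values were lowest in mutant replicate 2, at 49.03 and 16.9 CPM, while mlt-10 was lowest in replicate 3, at 8.78 CPM.

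**Figure D3:**
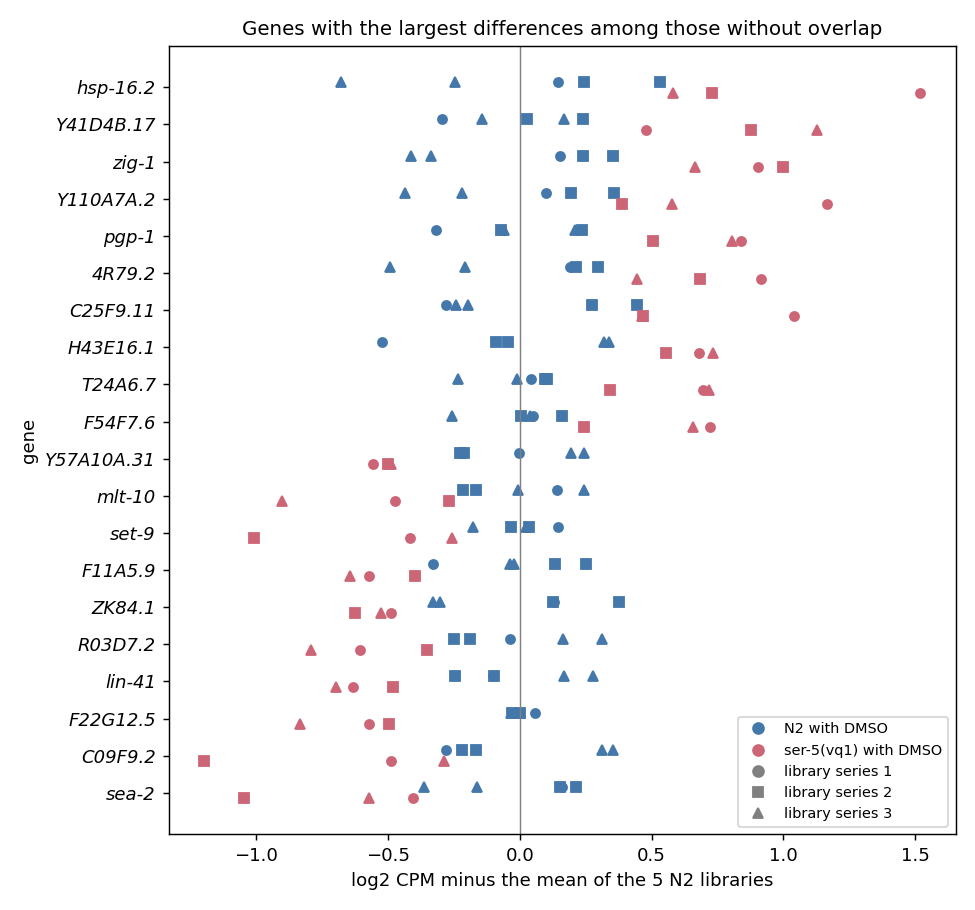
Log2 CPM of each library minus the mean of the 5 N2 libraries for the 10 higher and 10 lower genes with the largest fold changes among non-overlapping genes whose mean log2 CPM is at least 2 (blue N2, red ser-5(vq1), both with DMSO; marker shape gives the library series). The genes were chosen for non-overlap, so the separation is a description; the spread of red points shows that the size differs between mutant libraries, as for hsp-16.2 and sea-2.

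The median differences of germline genes and of oocyte genes were slightly negative in all 3 library series. Of 36 tested germline genes, 31 had a negative log2 fold change, 6 had an unadjusted p below 0.05, all lower, and the median was -0.11. Of 24 tested oocyte and eggshell genes, all 24 were negative, 4 had an unadjusted p below 0.05, and the median was -0.18. Among all genes 3.24% were lower at that p. The direction was negative in each of the 3 series for 15 germline genes (41.7%) and 20 oocyte genes (83.3%), against 15.3% of all genes. No gene of either list had an adjusted p below 0.05. The mean log2 level of the germline list, relative to the N2 mean, was -0.20, -0.17 and -0.06 in mutant replicates 1 to 3. In the N2 libraries it ran from -0.12 to 0.11. For oocyte genes it was -0.21, -0.33 and -0.08 in the mutant and -0.12 to 0.14 in N2. The strains overlapped in both lists through mutant replicate 3. Both medians were negative in all 18 other settings, from -0.18 to -0.08 for germline genes and from -0.27 to -0.10 for oocyte genes. In whole animals, fewer cells of a type and less RNA per cell cannot be told apart.

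The lin-41 transcript, whose product holds back oocyte maturation, stood at 110, 146, 121, 122 and 158 CPM in N2 and at 84.0, 93.3 and 80.4 CPM in the mutant. The groups were apart, and the log2 fold change was -0.61 ± 0.14 (SE, adjusted p = 0.612, edgeR). For puf-7, a Pumilio-type RNA-binding protein gene, N2 had 72.7, 91.3, 78.1, 69.1 and 88.5 CPM and the mutant 60.3, 57.3 and 62.2 CPM (-0.42 ± 0.12). The further oocyte genes at that p were puf-6 (-0.29 ± 0.12) and mbk-2, a kinase gene of the oocyte-to-embryo transition (-0.18 ± 0.07), both named after their values were seen.

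Among germline genes, pgl-3, which encodes a P granule protein, stood at 81.6, 108.4, 93.6, 86.4 and 107 CPM in N2 and at 62.4, 73.2 and 68.7 CPM in the mutant (-0.49 ± 0.14). The nos-3 transcript, for a Nanos-related translational repressor, stood at 145, 136, 145, 139.7 and 145 CPM in N2 and at 122, 123 and 113 CPM in the mutant (-0.25 ± 0.07). For both genes every mutant library lay below every N2 library. Of 40 tested replication and cell cycle genes, 36 were negative, 3 were lower at an unadjusted p below 0.05 (7.5%, against 3.24% of all genes), and the median was -0.10. These were the replicative helicase genes mcm-2 (-0.30 ± 0.12) and mcm-4 (-0.24 ± 0.10), and cyd-1, the cyclin D gene (-0.30 ± 0.14), the last named after its values were seen.

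The 3 tested yolk protein genes had log2 fold changes from -0.46 to -0.31, none with an unadjusted p below 0.05. Sperm genes had the lowest median of all lists, -0.92 over 49 genes, of which 45 were negative. They also varied most between libraries of the same strain. The mean log2 level of the list, relative to the N2 mean, was -0.13, 0.77, -1.104, 0.07 and 0.39 in N2 replicates 2 to 6 and -2.31, -0.57 and -0.03 in mutant replicates 1 to 3. The strains overlapped, and mutant replicate 1 was the lowest library. Many members encode major sperm proteins with near-identical sequences, so reads may have been split or lost between copies, and the 95% interval of the fold change lay inside 2-fold for 5 of the 49 genes. The median of the list ran from -1.65 to -0.38 over the other settings. At an unadjusted p below 0.05, 4 genes were lower (8.16%, against 3.24% of all genes). They were msp-77 (-2.13 ± 0.79), ssp-16 (-1.80 ± 0.74) and, named after their values were seen, nspd-9 (-2.03 ± 0.84) and msp-45 (-1.88 ± 0.84). Their N2 means were 0.726, 1.00, 0.644 and 1.51 CPM.

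Lists for other tissues showed less. Of 29 neuronal genes, 17 genes of pharyngeal muscle and gland, 21 intestinal genes and 19 genes of the gonad sheath, spermatheca and vulva, none had an unadjusted p below 0.05, and their medians were 0.06, 0.06, -0.07 and 0.01. Of 30 body wall muscle genes, 1 was lower at that p (3.33%, against 3.24% of all genes), and the median was -0.05. It was unc-52, which encodes the basement membrane protein perlecan (-0.33 ± 0.14). Cytosolic ribosomal protein genes had a median of 0.05 over 78 genes, but series 2 went the other way. Their median difference was 0.27 in series 1, -0.40 in series 2 and 0.31 in series 3, and none had an unadjusted p below 0.05. Receptors of other amines likewise had a median of 0.16 over 14 genes, which was -0.15 without mutant replicate 2.

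**Figure D4:**
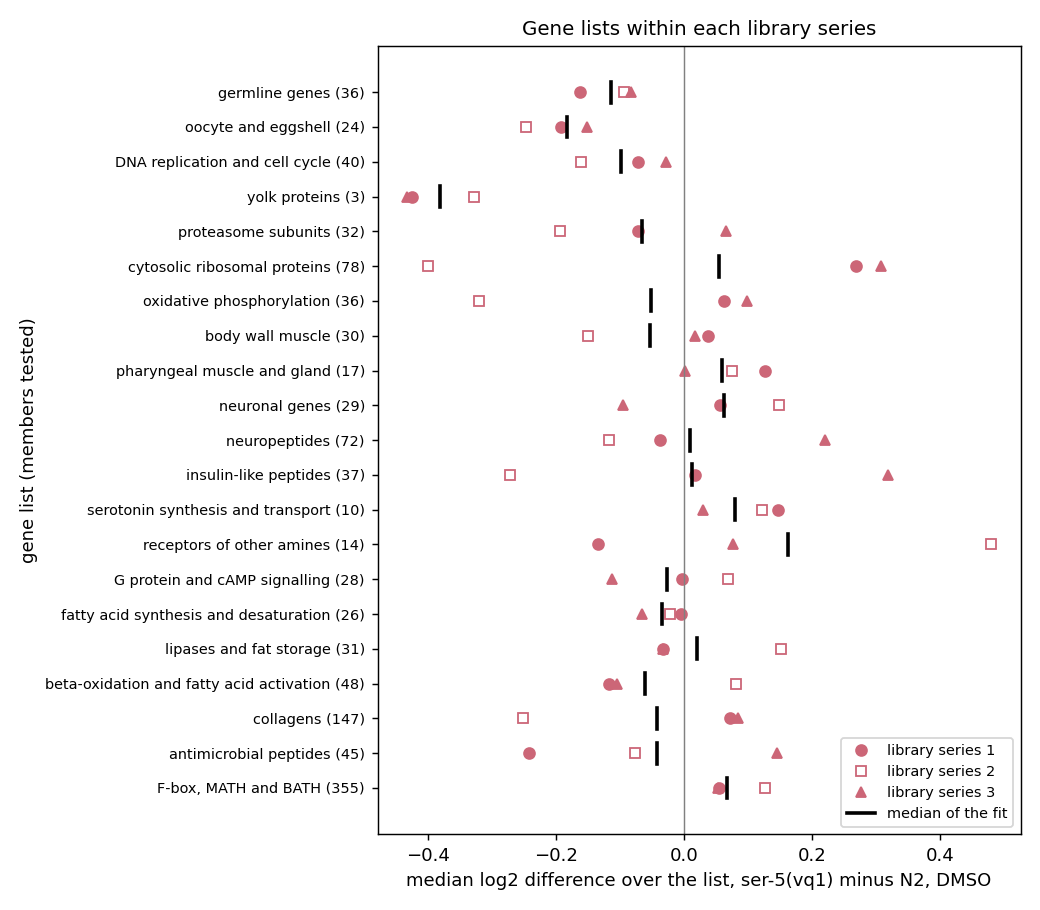
Median log2 difference, ser-5(vq1) minus N2 with DMSO, over the tested members of 21 gene lists (number in brackets), within each library series (symbols) and from the fit over all groups (black bars). Germline, oocyte, DNA replication and yolk lists lie below 0 in all 3 series, while ribosomal protein genes lie at -0.40 in series 2 and at 0.27 and 0.31 in the others; sperm genes (-1.29, -0.64 and -0.59) are off this scale and not drawn.

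Fat metabolism was a subject of the series, and none of its listed genes had an adjusted p below 0.05. The 95% interval lay inside 2-fold for 21 of 26 genes of synthesis and desaturation and 43 of 48 of beta-oxidation and activation. This held for 24 of 31 genes of lipases and fat storage and 14 of 15 of fatty acid binding. Of 26 tested genes of fatty acid synthesis and desaturation, 1 was higher (3.85%) and 2 were lower (7.69%) at an unadjusted p below 0.05, against 2.16% and 3.24% of all genes. The higher one was fat-6, a stearoyl-CoA desaturase gene that makes oleic acid. It stood at 239, 265, 263, 253 and 268 CPM in N2 and at 366, 292 and 312 CPM in the mutant, so that all mutant libraries lay above N2. The log2 fold change was 0.33 ± 0.09 (SE, 95% interval 0.14 to 0.52, adjusted p = 0.640, edgeR). The related desaturase genes pointed the other way, with -0.29 (-0.64 to 0.07) for fat-5 and -0.33 (-0.92 to 0.25) for fat-7.

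The lower genes were pod-2, which encodes acetyl-CoA carboxylase, the first enzyme of fatty acid synthesis, and mdt-15, a Mediator subunit gene that regulates desaturase genes. For pod-2, N2 had 472, 446, 502, 469.8 and 462 CPM and the mutant 374, 339 and 349 CPM, without overlap. Its log2 fold change was -0.41 ± 0.12 (SE), and the adjusted p was 0.714. The value for mdt-15 was -0.18 ± 0.06, and this gene was named after its values were seen. The nuclear receptor gene nhr-49, a regulator of fat oxidation and desaturation, had a log2 fold change of 0.10 (95% interval -0.12 to 0.31).

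Of 48 tested genes of beta-oxidation and fatty acid activation, 3 had an unadjusted p below 0.05, all lower (6.25%, against 3.24% of all genes), and the median was -0.06. The carnitine palmitoyltransferase gene cpt-1, for the entry of fatty acids into mitochondria, stood at 494, 503, 453, 477 and 503 CPM in N2 and at 403, 416 and 435 CPM in the mutant (-0.22 ± 0.08). The fatty acyl-CoA synthetase gene acs-13 differed by -0.26 ± 0.09, and F53A2.7, named after its values were seen, by -0.21 ± 0.10. In all 3 the strains did not overlap. The acs-2 gene, an acyl-CoA synthetase target of NHR-49, varied widely in N2, at 218, 114, 111, 238 and 82.8 CPM. The mutant had 92.1, 153 and 72.1 CPM, and the log2 fold change was -0.53 (-1.38 to 0.32).

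Of 31 tested genes of lipases and fat storage, none had an unadjusted p below 0.05. The adipose triglyceride lipase gene atgl-1 stood at 108.5, 97.57, 98.97, 108.9 and 102.98 CPM in N2 and at 105.8, 112.6 and 97.99 CPM in the mutant. The strains overlapped, and the log2 fold change was 0.03 (95% interval -0.17 to 0.23). The log2 fold changes were 0.31 (-0.23 to 0.86) for the lysosomal lipase gene lipl-4, 0.19 (-0.29 to 0.67) for the lipid droplet gene dhs-3 and -0.14 (-0.45 to 0.16) for the acyltransferase gene dgat-2. Among 15 genes of fatty acid binding, lbp-8, a lysosomal lipid chaperone gene, was at 0.705, 0.617, 0.687, 1.15 and 0.602 CPM in N2 and at 2.44, 1.69 and 1.01 CPM in the mutant. They overlapped at N2 replicate 5, and the log2 fold change was 1.19 ± 0.51.

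None of 72 neuropeptide genes, 37 insulin-like peptide genes, 147 collagens and 45 antimicrobial peptide genes had an unadjusted p below 0.05, against 5.4% of all genes. Among the UDP-glucuronosyl and glutathione transferase genes, 5 were higher (4.63%) and 1 was lower (0.926%) at that p, and of 73 cytochrome P450 genes 2 were higher (2.74%), against 2.16% higher and 3.24% lower among all genes. These families encode enzymes of detoxification. The difference was positive in all 3 series for 25.0% of the former and 28.8% of the latter, against 15.3% of all genes.

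In the families of F-box, MATH and BATH genes, which encode adaptors of ubiquitin ligases, 20 of 355 tested genes were higher (5.63%) and 5 were lower (1.41%), against 2.16% and 3.24% of all genes. The mutant was higher in all 3 series for 96 of them (27.0%), with a list median of 0.07. The 2 with the smallest p were fbxa-59 and fbxa-98. The fbxa-59 transcript stood at 28.0, 29.0, 28.0, 30.3 and 24.9 CPM in N2 and at 36.7, 39.7 and 35.8 CPM in the mutant (0.42 ± 0.11). The fbxa-98 transcript stood at 9.57, 8.91, 9.36, 8.81 and 8.26 CPM in N2 and at 14.5, 12.2 and 12.2 CPM in the mutant (0.53 ± 0.14). For both the strains did not overlap, and the adjusted p was 0.640 by edgeR. These families hold similar copies, and how reads shared by copies were counted is not given in the sources used here. With loxapine the median of the list was -0.02, with 8 genes higher and 20 lower at an adjusted p below 0.05, against 2.74% and 2.75% of all genes.

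Among 221 nuclear hormone receptor genes, 5 were higher (2.26%) and 3 lower (1.36%) at an unadjusted p below 0.05, near or below the 2.16% and 3.24% of all genes. The smallest p belonged to nhr-71 (-0.33 ± 0.09) and nhr-102 (0.47 ± 0.16). Of 21 genes of insulin signalling and daf-16 targets, 1 was lower at that p (4.76%, against 3.24% of all genes). It was the transcription factor gene daf-16 (-0.25 ± 0.10, adjusted p = 0.814 by edgeR). Its groups overlapped, and the difference was -0.38, 0.001 and -0.35 in series 1 to 3. Of 36 genes of oxidative phosphorylation, 3 were lower (8.33%, against 3.24% of all genes). They were sdha-1 of complex II (-0.28 ± 0.09), nuo-5 of complex I (-0.26 ± 0.10) and H28O16.1 (-0.26 ± 0.12), named after its values were seen. The median difference of the list was 0.06 in series 1, -0.32 in series 2 and 0.10 in series 3. The mutant was lower in all 3 series for 11.1% of the list, against 15.3% of all genes.

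By chromosome, the share of genes with an unadjusted p below 0.05 was 5.9% on I, 6.25% on II, 6.85% on III, 4.97% on IV, 5.3% on V and 3.08% on X. Over all genes tested the share was 5.4%. Lower genes made up 107 of 149 on chromosome I and 30 of 74 on X, against 533 of 888 among all genes. Along chromosome I the share was 7.33% of 1010 genes more than 4 Mb from ser-5 and 4.09% to 5.55% in the nearer windows beyond 0.5 Mb, so the genes around the mutated locus did not carry a higher share.

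The same strain difference was also measured with 50 µM loxapine, in 3 N2 and 2 ser-5 libraries that share none with the DMSO groups. The N2 libraries come from library series 1, 2 and 3, but the mutant libraries from series 1 and 2 only. The fit has no term for the series, so the loxapine values are not balanced for it, and its part in them was not tested. There 902 genes (5.49%) had an adjusted p below 0.05, and 4340 (26.4%) an unadjusted p below 0.05. The ser-5 transcript stood at 1.73, 2.36 and 1.92 CPM in N2 with loxapine and at 0.186 and 0.662 CPM in the mutant (-2.23 ± 0.41, adjusted p = 0.0074). Of the 888 genes with an unadjusted p below 0.05 with DMSO, 751 (84.6%) had the same sign with loxapine, against 67.7% of all genes. Both p-values were below 0.05 with 1 sign for 419 genes, which are 47.2% of the 888 and 9.65% of the 4340. For the 533 lower genes the share that also reached that p with the same sign was 61.4%, and for the 355 higher genes it was 25.9%. Among all genes tested 21.3% had the same sign and that p with loxapine, so the higher genes lay near this share. The test of the difference between both strain effects found 0 genes at an adjusted p below 0.05 and 1561 at an unadjusted p below 0.05 (9.5%).

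The germline and oocyte lists had more negative medians with loxapine, while the sperm list turned positive. The median was -0.43 for germline genes, of which 12 of 36 were lower at an adjusted p below 0.05. It was -0.50 for oocyte genes, of which 8 of 24 were lower, against 2.75% of all genes. The sperm list had a median of 0.26 with loxapine, against -0.92 with DMSO. Of its 49 genes 37 were positive, and none had an adjusted p below 0.05. The pgl-3 value was -1.103 ± 0.17 (adjusted p = 0.00292), the puf-7 value -1.01 ± 0.15 (adjusted p = 0.00234) and the lin-41 value -0.93 ± 0.17 (adjusted p = 0.00765). The unadjusted p of the difference from DMSO was 0.00899 for pgl-3, 0.00532 for puf-7 and 0.159 for lin-41. Of the genes higher with DMSO, several passed the test with loxapine, among them zig-1 (0.99 ± 0.23, adjusted p = 0.0234) and T24A6.7 (1.41 ± 0.28, adjusted p = 0.0111), while fat-6 did not (0.28 ± 0.11, adjusted p = 0.13). Neuropeptide genes had a median of 0.01 with DMSO and of 0.61 with loxapine. With loxapine 27 of 72 were higher at an adjusted p below 0.05, against 2.74% of all genes. Series 3, which has no mutant library with loxapine, stood apart in N2 with DMSO as well. Its N2 replicates 3 and 6 had the lowest mean neuropeptide levels (-0.14 and -0.20) and the highest germline levels (0.108 and 0.106) of the 5 N2 libraries. For pgp-1 the sign of the estimate turned, from 0.71 to -0.46 ± 0.43 (unadjusted p of the difference 0.0468, edgeR). With loxapine it stood at 26.8, 47.3 and 80.2 CPM in N2 replicates 1 to 3 and at 42.6 and 32.2 CPM in mutant replicates 1 and 2. The mutant was thus the higher in series 1, and the highest N2 value came from series 3.

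**Figure D5:**
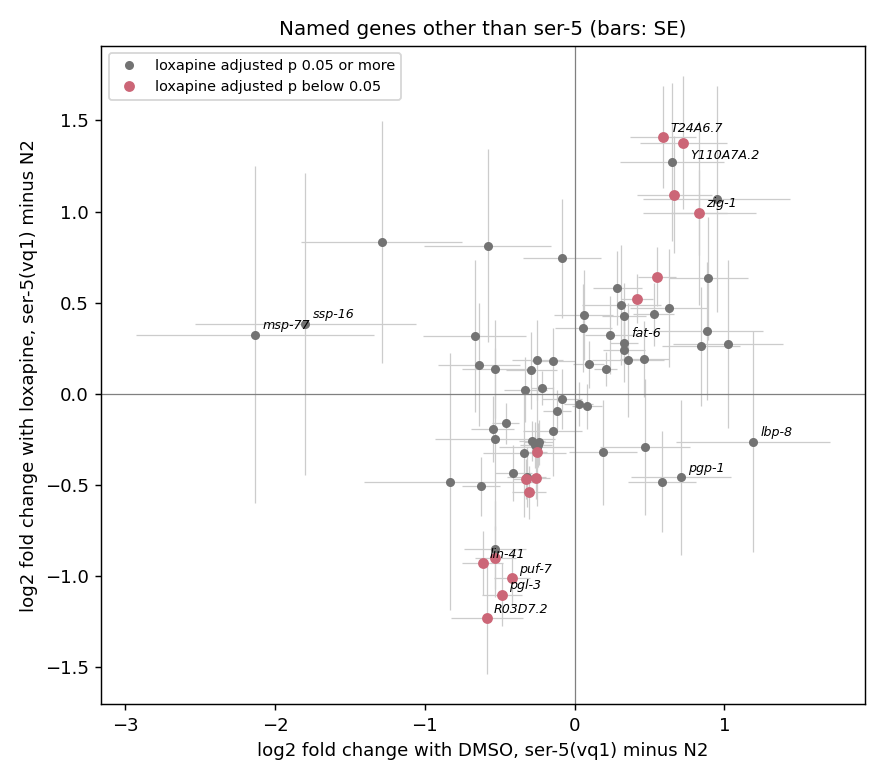
Log2 fold change of ser-5(vq1) minus N2 with loxapine (vertical axis, 3 N2 and 2 ser-5 libraries) against the same with DMSO (horizontal axis, 5 and 3 libraries) for the named genes other than ser-5, with SE bars; red points have an adjusted p below 0.05 with loxapine. With ser-5 included, 54 of the 74 genes (73%) have the same sign on both axes, against 67.7% of all genes tested. The genes pgp-1, lbp-8, msp-77 and ssp-16 lie in the opposite quadrants.

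A direct comparison with the ser-7(vq2) mutant with DMSO, 3 libraries of the same series, found 2 genes at an adjusted p below 0.05 (0.0122%) and 455 at an unadjusted p below 0.05 (2.77%). These 2 genes were ser-5, with a log2 difference of -2.92 between ser-5 and ser-7 mutants, and ser-7. For ser-7 against N2 with DMSO, 197 genes (1.2%) had an adjusted p below 0.05.

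Many of the genes described above were measured away from N2 in the ser-7 mutant as well. Both comparisons use the same 5 N2 libraries, so their values are set side by side and are not independent. The log2 fold change against N2 was 0.55 in ser-5 and 0.98 ± 0.13 in ser-7 (adjusted p = 0.00145) for F54F7.6, and -0.62 and -0.82 ± 0.13 (0.0077) for F22G12.5. It was -0.46 and -0.57 ± 0.09 (0.0077) for arid-1, and -0.41 and -0.76 ± 0.13 (0.00824) for pod-2. Of the germline and oocyte genes, lin-41 had -0.61 and -0.83 ± 0.14 (0.00853), nos-3 -0.25 and -0.42 ± 0.07 (0.00877), pgl-3 -0.49 and -0.58 ± 0.14 (0.0394) and puf-7 -0.42 and -0.59 ± 0.12 (0.0215). For zig-1 the values were 0.83 and 0.68 ± 0.19 (0.0773), and for fat-6 0.33 and 0.12 ± 0.09 (0.583). In the direct test of ser-5 against ser-7, none of these 10 genes had an adjusted p below 0.05. The unadjusted p of that difference was 0.00756 for F54F7.6, 0.017 for pod-2, 0.0458 for nos-3 and 0.057 for fat-6, and 0.166 to 0.522 for the other 6. None of these differences from N2 is therefore shown to be particular to the ser-5 mutant.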

How the data were processed

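RNA-seq libraries were made from whole worms and sequenced as single reads of 100 nucleotides, 6 libraries per lane, as the labels' protocols state. A single table of whole-number read counts, 1 value per gene and library and not scaled, was deposited by the authors. How reads were aligned, to which build, and how they were counted and stranded: not given in the sources used here. All 19598 identifiers of the table were found in Ensembl release 115 (WBcel235), and 11 symbols that had turned into dates were replaced through them. No sequence is printed.

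Groups follow genotype and treatment. In R 4.3.3, edgeR 4.0.16 kept 16431 genes (minimum count 10, minimum total 15), scaled by TMM and used its quasi-likelihood test (robust) on 7 group means over 22 libraries, with 15 residual degrees of freedom. P-values were adjusted by Benjamini-Hochberg over all genes tested, with a threshold of 0.05. SEs were obtained as the log2 fold change divided by the root of F, and intervals are 95% intervals. Log2 levels of single libraries and differences within a library series use a prior count of 2. The pipeline was tested on simulated data.

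The members and the 39 gene lists were chosen with earlier results of these data known, so lists are described by counts and medians without a test. Of the fixed genes vit-2 was not analysed here. Named genes are those past the threshold, the 10 higher and 10 lower with the largest fold change among genes without overlap whose mean log2 CPM reached 2, up to 5 each way past the threshold with the library series block, up to 2 per list with the smallest unadjusted p below 0.05, a fixed set of serotonin and fat genes, and the 2 nearest tested genes on each side of ser-5. Other genes are said to be named after their values were seen.

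Alternatives were RLE size factors, DESeq2 1.42.0 (Wald test), no filter, a fit of both strains with DMSO alone, blocks for the replicate tag and for the library series, near-duplicate controls summed with and without the series block, subsets of the controls, and the removal of 1 library at a time. Replicate tags are the batch field of the labels and so pair the libraries; both strains share tags 2 and 3 only. Deviations from the strain means of libraries with the same tag correlated at 0.1589 and 0.4657, all 5 pairs between the strains within a series at 0.1589 to 0.4657, and pairs from different series at -0.3991 to 0.2348.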

Additional observations from a re-analysis of the deposited data

Results flagged for a closer look

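Dixon's test was applied to the 5 N2 libraries for the 74 named genes and the 39 gene lists, 113 groups in all. It set 1 library apart in 2 of them, and chance alone does so in about 1 in 20 groups. For the major sperm protein gene msp-77, N2 replicate 4 stood at 0.291 CPM, while the other N2 libraries stood at 0.735 to 0.940 CPM. That library also had the lowest sperm list level in N2 (-1.104 on the log2 scale), and the part of this in the difference between the strains was not tested. For lbp-8, N2 replicate 5 stood at 1.15 CPM and the other N2 libraries at 0.602 to 0.705 CPM. No tested difference between the strain effects with DMSO and with loxapine passed an adjusted p of 0.05.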

How the results depend on the processing

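The number of genes past an adjusted p of 0.05 was 1 in the main test, where 888 had an unadjusted p below 0.05. It was 5 with DESeq2 (ser-5, zig-1, F22G12.5, arid-1 and, named after its values were seen, F31C3.3), 4 with the library series block (ser-5, zig-1, col-20 and arid-1, with 1421 genes at an unadjusted p below 0.05), 2 with the near-duplicate controls summed and the library series block (ser-5 and col-20), 0 with the compared groups only (1159 genes at an unadjusted p below 0.05) and 0 with N2 replicates 4 to 6 only (489 at an unadjusted p below 0.05). With the near-duplicate controls summed and no block it was 1, with 507 genes at that p. Leaving out 1 library at a time gave 0 to 1. The counts of 0 came without ser-5 replicate 1 (540 genes at an unadjusted p below 0.05) and without ser-5 replicate 3 (1163). In the replicate block the count was 1, the log2 fold change of ser-5 was -2.67 (adjusted p = 0.00432), and the block changed no call. Tags 4 to 6 occur in N2 with DMSO only, so N2 replicates 4 to 6 do not inform the strain difference in that fit. The ser-5 value was -2.57 in the fit of both strains alone and -2.47 when N2 replicates 4 to 6 were the controls, both no longer past the threshold, and from -3.06 to -2.41 when 1 library was left out. Its direction held in all 18 settings.

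Among the other named genes the sign turned in 11 values. Under the replicate block the log2 fold change was 0.0389 for ser-7, -0.0976 for cat-1 and 0.0281 for F16D3.6. With N2 replicates 2 and 3 only it was -0.0694 for cat-1, and with N2 replicates 4 to 6 only -0.00833 for ser-1. Leave-one-out gave -0.0185 to 0.145 for ser-1, -0.0452 to 0.528 for mod-1, -0.0208 to 0.0788 for atgl-1, -0.157 to 0.00513 for aak-2 and -0.311 to 0.147 for F16D3.6. The cause of these changes was not tested. Depth limits genes of few reads: below a mean log2 CPM of 2, the 95% interval lay inside 2-fold for 2690 of 5862 genes.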
